A study of Beta vulgaris with 12 samples.

Results

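The circadian clock of plants is a set of transcription factors that repress or activate one another in turn over the day. In Arabidopsis, the MYB factor LHY peaks near dawn and represses genes of the evening, the pseudo-response regulators are expressed one after another from morning to night and repress LHY, and the evening complex acts after dusk. Roots keep a clock of their own, which in Arabidopsis is coupled to that of the shoot by sugars and light.

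Circadian clock genes were examined here in the roots of sugar beet seedlings. They were chosen by their description in the deposited table, that is, every entry named LHY, REVEILLE, two-component response regulator-like, TIMING OF CAB, GIGANTEA, ADAGIO, EARLY FLOWERING 3 or EARLY FLOWERING 4. The rule found 17 genes among 28320, and no entry named TIMING OF CAB was found. They comprised 5 MYB factors (LHY and 4 REVEILLE genes), 6 pseudo-response regulators, 3 genes of the GIGANTEA and ADAGIO group and 3 EARLY FLOWERING genes. The annotation columns place 9 of the 17 in the KEGG pathway of the plant circadian rhythm. All 17 exceeded 0 FPKM in at least 1 library and all had a mean of at least 1 FPKM in at least 1 group, but 3 were listed at 0 in some libraries.

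Seedlings of the cultivar KWS0143 grew in aerated nutrient solution under a daily cycle of light and dark. Their age is given as 4 weeks for all groups, on day 1 and day 7 alike. The control groups CK_1 and CK_7 received Hoagland solution alone, and the salt groups S_1 and S_7 received it with NaCl and Na2SO4 to 300 mM Na+, with roots taken on day 1 and on day 7. RNA of 3 biological replicates per group gave 12 libraries, and expression is given as FPKM, a fragment count scaled to transcript length and library size. The methods describe a stepwise rise to the final concentration, and neither they nor the labels state from which step the days count or at what hour roots were harvested. The hour of harvest is a limit for genes that cycle daily, and a difference between groups in that hour cannot be told apart here from a difference in clock gene level.

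FPKM totals of the libraries ranged from 382847 to 423530, and the depth relative to a CK_1 library, read from the step size among low values, ranged from 0.907 to 1.27. Of the 9 genes chosen as root markers, summed FPKM was 34.5 to 124 on day 1 and 55.4 to 286 on day 7. Of 2 genes named SHORT-ROOT, a defining root factor, LOC104894957 was listed at 0 in 2 libraries of CK_1, 2 of S_1 and 1 of CK_7 and was at 11.3 to 15.2 FPKM in S_7, and LOC104888856 was at most 0.0541 FPKM in any library. SCARECROW (LOC104904740) ranged from 2.99 to 10.1 FPKM over the 12 libraries. Genes of Casparian strip membrane protein 3 ranged from 2.85 to 18.6 (LOC104897879) and from 2.82 to 80.4 (LOC104889278). A gene of high-affinity nitrate transporter 2.1 (LOC104899765) was at most 0.165 FPKM on day 1 and at most 0.410 in S_7, but at 1.68, 41.8 and 48.8 in CK_7. The other gene of that name (LOC104899766) ranged from 0.178 to 5.08 FPKM. High-affinity nitrate transporter 3.2 (LOC104884524) ranged from 2.98 to 155 FPKM, and Casparian strip membrane protein 2 (LOC104898307) from 1.09 to 26.3 FPKM. Summed FPKM of 29 shoot genes (the Rubisco small chain, chlorophyll a-b binding proteins, photosystem I subunits and oxygen-evolving enhancers) was 90.9 to 232 in CK_1 and 83.6 to 469 in S_1, but 27.3 to 41.9 in CK_7 and 16.2 to 33.2 in S_7. None of these shoot genes was at 0 in all 12 libraries. The criteria for a DEG given in the next paragraph called 14 of the 29 lower and 1 higher in CK_7 than in CK_1. They called 12 of 28 tested lower and 0 higher in S_7 than in S_1. Over all genes, 3.4% and 2.66% were called lower in these comparisons. Of the 9 root markers, salt on day 7 called 2 higher and 1 lower, beside 5.08% of all genes in either direction. The part of shoot transcripts in the day differences of the clock genes was not tested. In bulk root RNA, fewer cells of a type and less RNA per cell cannot be told apart.

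Expression was compared with limma on the log2(FPKM + 1) scale, between 2 groups of 3 libraries, over the genes that were not at 0 in all 6. With the thresholds of the study, DEGs were genes with an unadjusted P under 0.05 and an absolute log2 fold change above 1. The study took its P from Ballgown, however, and the calls here rest on limma. For salt on day 1 and day 7, limma called 1621 and 1392 genes, and a linear model as in Ballgown called 1278 and 904. The limma p-values adjusted after Benjamini-Hochberg over all tested genes are given beside the changes. An exact permutation test of 3 libraries against 3 cannot give a p below 0.1.

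The dawn factor LHY (LOC104901408) was called in 3 of the 4 comparisons between groups. Its FPKM was 48.2, 43.7 and 29.3 in CK_1, 25.1, 9.5 and 17.6 in S_1, 3.69, 4.67 and 7.54 in CK_7, and 34.2, 15.6 and 20.2 in S_7. The order of the group means was thus CK_1, S_7, S_1 and CK_7, in which CK_1 overlapped with S_7 and S_7 with S_1, and CK_7 lay below all the other groups. From day 1 to day 7 in control roots, LHY fell by 2.73 on the log2 scale (standard error 0.30, limma adjusted p = 0.0129), a ratio of mean FPKM of 7.63. Salt downregulated LHY on day 1, by -1.24 on the log2 scale (standard error 0.38, limma adjusted p = 0.210), and upregulated it on day 7, by 1.92 (standard error 0.36, limma adjusted p = 0.0720), a ratio of mean FPKM of 4.40. On each day the salt and CK libraries did not overlap, but the adjusted p was above 0.05 on both. The day 1 call was lost when CK_1 replicate 1, CK_1 replicate 2 or S_1 replicate 2 was left out, with the log2 fold change then at -1.10, -1.17 and -0.88, and in the linear model of Ballgown (-1.27).

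Whether salt acted differently on the 2 days was tested with an interaction term over all 12 libraries, where 1.76% of 28320 genes passed an adjusted p of 0.05, 0.826% with a higher and 0.936% with a lower salt effect on day 7. LHY was the only clock gene that passed, with a salt effect higher by 3.16 on the log2 scale on day 7 than on day 1 (standard error 0.56, limma adjusted p = 0.0268). Leaving out single libraries gave an adjusted p of 0.0517 to 0.0636 in 6 of 12 cases, and in each of these the difference stayed above 2.80.

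REVEILLE 2 (LOC104891267), a MYB factor related to LHY, shared the low level in CK_7. Its FPKM was 8.17, 15.9 and 19.4 in CK_1, 14.3, 11.4 and 22.2 in S_1, 5.65, 3.27 and 5.87 in CK_7, and 24.2, 12.8 and 20.8 in S_7. The CK_7 libraries lay below those of all the other groups, which overlapped with one another. REVEILLE 2 was upregulated by salt on day 7 (log2 fold change 1.76, standard error 0.30, limma adjusted p = 0.0632) and was lower in CK_7 than in CK_1 (log2 fold change -1.34, standard error 0.37, limma adjusted p = 0.0860). The interaction did not pass, at 1.60 on the log2 scale (standard error 0.52, limma adjusted p = 0.180).

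REVEILLE 8 (LOC104908893), which in Arabidopsis activates evening genes, met the criteria only between the controls. Its FPKM was 16.1, 13.3 and 23.7 in CK_1 and 6.76, 7.15 and 5.50 in CK_7, and it fell by 1.29 on the log2 scale (standard error 0.24, limma adjusted p = 0.0348). In salt-treated roots the values were 14.4, 7.74 and 10.4 in S_1 and 5.82, 5.59 and 9.59 in S_7, and these groups overlapped. The 2 genes described as REVEILLE 6 met the criteria in no comparison. LOC104888365 ranged from 7.99 to 20.8 FPKM and LOC104887002 from 2.96 to 7.78 FPKM over the 12 libraries.

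**Figure D1:**
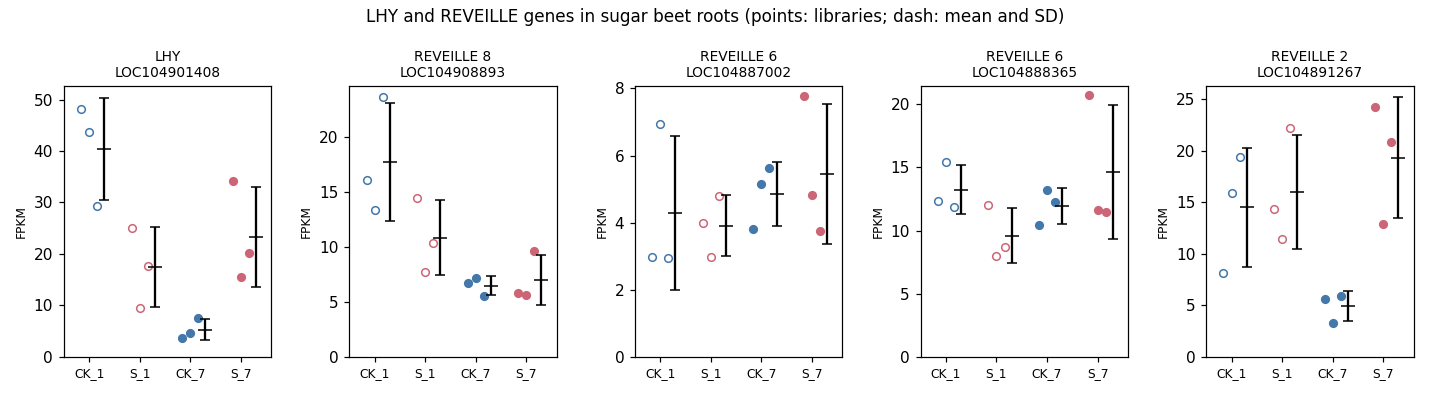
FPKM of LHY and the 4 REVEILLE genes (linear vertical axes from 0) in each library by group, with CK in blue, salt in red, day 1 as open and day 7 as filled circles, and the mean and SD of 3 libraries as a dash with bars. LHY lies between 3.69 and 7.54 in CK_7 and at 9.5 or more in all 9 other libraries, and REVEILLE 2 lies at 5.87 or less in CK_7 and at 8.17 or more elsewhere.

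The pseudo-response regulators divided by direction across the days. APRR9 (LOC104902773), which in Arabidopsis is the earliest of the family in the day, had FPKM values of 3.27, 6.11 and 3.12 in CK_1, 5.29, 3.45 and 7.04 in S_1, 1.18, 0.921 and 1.204 in CK_7, and 1.41, 1.03 and 1.07 in S_7. All 6 libraries of day 7 lay below all 6 of day 1, and salt and CK overlapped on both days. APRR9 fell with day by 1.25 on the log2 scale in CK (standard error 0.29, limma adjusted p = 0.0581) and by 1.49 under salt (standard error 0.28, limma adjusted p = 0.0581). Without CK_1 replicate 2 the control difference was -0.9996, just short of the fold criterion.

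APRR5 (LOC104888159), expressed later in the Arabidopsis day and a repressor of LHY there, ran the other way. Its FPKM was 2.39, 5.36 and 3.96 in CK_1, 8.56, 6.97 and 8.19 in S_1, 7.85, 7.74 and 7.02 in CK_7, and 14.1, 14.6 and 10.3 in S_7. Salt libraries lay above CK libraries on both days, and day 7 lay above day 1 in CK and under salt. The log2 differences were 0.90 for salt on day 1, 0.70 for salt on day 7, 0.85 for the days in CK and 0.64 for the days under salt, with limma adjusted p of 0.210, 0.0997, 0.117 and 0.105. None met the fold criterion, although without CK_1 replicate 2 the salt difference on day 1 was 1.11 and the day difference in CK was 1.06, and both then did.

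APRR1 is the name of TOC1, the evening regulator that represses LHY in Arabidopsis, and 2 genes carried it. The gene LOC104894013 had FPKM values of 14.2, 12 and 9.12 in CK_1, 11.5, 11.2 and 9.62 in S_1, 26.4, 17.1 and 17.3 in CK_7, and 19.6, 16.5 and 17.9 in S_7. Every library of day 7 lay above every library of day 1, whereas salt and CK overlapped on each day. The difference between days was 0.73 in CK (standard error 0.24, limma adjusted p = 0.129) and 0.69 under salt (standard error 0.12, limma adjusted p = 0.0540), below the fold criterion. The other gene, LOC104900191, stayed at or below 1.41 FPKM and was listed at 0 in a single S_1 library.

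BTC1, described in the table as PRR73, is the beet bolting time regulator that governs the need for winter cold before flowering. Its FPKM was 40.6, 48.7 and 34.2 in CK_1, 28.6, 26.5 and 25.6 in S_1, 28.1, 27.8 and 22.7 in CK_7, and 13.9, 14.8 and 13.2 in S_7. Salt libraries lay below CK libraries on both days, and the S_7 libraries lay below all the others. The log2 difference between salt and CK was -0.58 on day 1 (standard error 0.17, limma adjusted p = 0.190) and -0.86 on day 7 (standard error 0.12, limma adjusted p = 0.0394). The difference between S_7 and S_1 was -0.90 (standard error 0.10, limma adjusted p = 0.0274). Leaving out S_7 replicate 1 gave an adjusted p of 0.096 for salt on day 7 and 0.0825 for the days under salt. BTC1 thus passed an adjusted p of 0.05, as did 1.69% of all genes for salt on day 7 and 2.66% for the days under salt, without reaching the fold criterion. With median ratio scaling the difference between S_7 and S_1 was -1.14 and met it, as it did in the linear model of Ballgown (-1.01).

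APRR2 (LOC104892971), which in Arabidopsis is related to the GOLDEN2-LIKE factors rather than to the core clock, was expressed at a low level. Its FPKM was 4.80, 5.20 and 2.20 in S_1 and 0.439, 0.450 and 1.34 in S_7, and these groups did not overlap. It fell between them by 1.52 on the log2 scale (standard error 0.36, limma adjusted p = 0.0859). The CK libraries ranged from 0.653 to 3.35 on day 1 and from 0.220 to 0.876 on day 7, and did not meet the criteria except when CK_1 replicate 1 was left out.

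**Figure D2:**
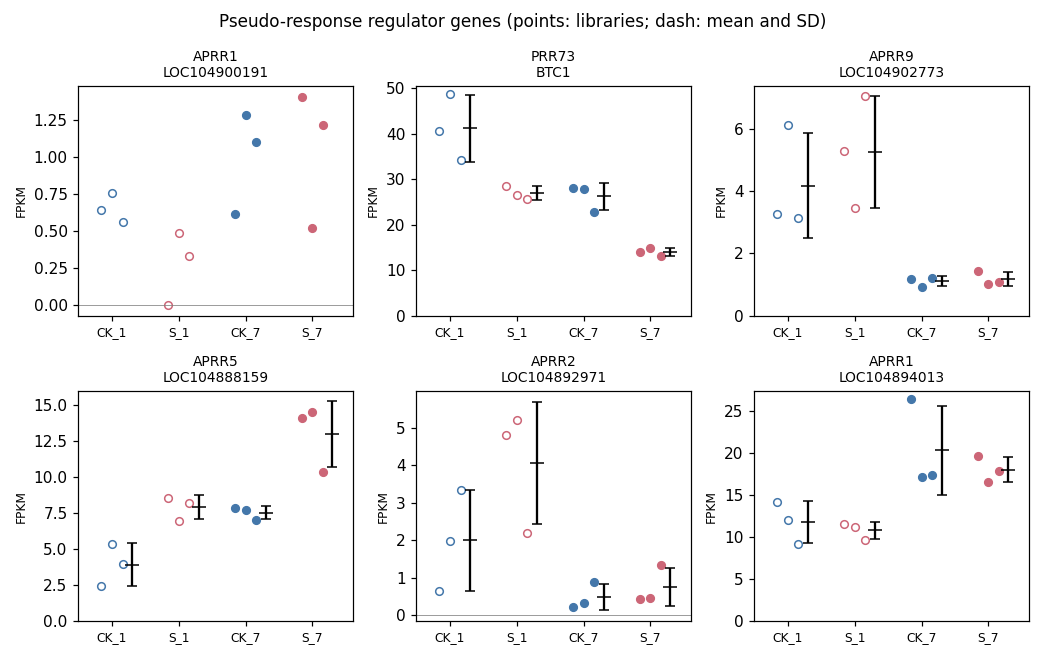
FPKM of the 6 pseudo-response regulator genes in each library by group, with colours, symbols and bars as for the MYB genes, and with no mean and SD for LOC104900191, which was listed at 0 in a library. APRR9 is lower and APRR1 (LOC104894013) higher in all 6 libraries of day 7, while BTC1 is lowest, at 13.2 to 14.8, in S_7.

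GIGANTEA (LOC104896241), a large plant-specific protein that in Arabidopsis stabilises the ADAGIO proteins, was among the most highly expressed clock genes and the one with the least spread in CK_1, with a coefficient of variation of 4.84%. Its FPKM was 42.3, 39.6 and 43.5 in CK_1, 44.8, 36.2 and 35.9 in S_1, 34.4, 31.5 and 35.6 in CK_7, and 26.1, 24.4 and 20.3 in S_7. The S_7 libraries lay below all the others, and the salt and CK libraries of day 1 overlapped. The log2 difference between salt and CK on day 7 was -0.51 (standard error 0.12, limma adjusted p = 0.112) and that between S_7 and S_1 was -0.70 (standard error 0.15, limma adjusted p = 0.0708), so that neither met the criteria.

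The ADAGIO genes encode F-box proteins that sense blue light, and in Arabidopsis ADAGIO 1 (ZEITLUPE) targets TOC1 for degradation. Adagio protein 1 (LOC104902393) had FPKM values of 9.81, 15.9 and 9.35 in CK_1, 11.5, 2.10 and 12.4 in S_1, 11.04, 12.1 and 10.8 in CK_7, and 15.2, 0.0706 and 1.70 in S_7. In S_1 a single library lay far below the others and in S_7 a single library lay far above them, and the gene met the criteria in no comparison. Without S_7 replicate 1 the log2 difference between salt and CK on day 7 was -2.86 (limma adjusted p = 0.0861) and met them. Adagio protein 3 (LOC104897992), the FKF1 of Arabidopsis, was as uneven in CK_1, at 1.79, 15.2 and 2.89, where the other groups ranged from 2.99 to 22.8. It met the criteria for salt on day 1 with median ratio scaling (log2 fold change 1.56, limma adjusted p = 0.268), in the linear model of Ballgown (1.43) and without CK_1 replicate 2 (2.29). Without that library it was also called higher in CK_7 than in CK_1 (log2 fold change 2.09, limma adjusted p = 0.0141).

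Of the evening complex, EARLY FLOWERING 3 (LOC104886353) was expressed at 16.2 to 25.7 FPKM in CK and at 6.60 to 17.1 FPKM under salt. Its salt libraries lay below the CK libraries of the same day on both days, but neither difference met the criteria. It was -0.73 on the log2 scale on day 1 (standard error 0.37, limma adjusted p = 0.416) and -0.27 on day 7 (standard error 0.10, limma adjusted p = 0.239). The EARLY FLOWERING 4-like gene (LOC104903351) was listed at 4.89, 0 and 0 in CK_1, 4.90, 0 and 0 in S_1, 31.8, 42.0 and 0 in CK_7, and 26.3, 0 and 28.1 in S_7. Values listed at 0 beside values above 20 FPKM occurred within the same group, and its fitted differences, although plotted with those of the other genes, are not read as changes. EARLY FLOWERING 4 (LOC104903368) was listed at 0 in 7 of 12 libraries, including all 3 of CK_7, and reached at most 5.52.

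**Figure D3:**
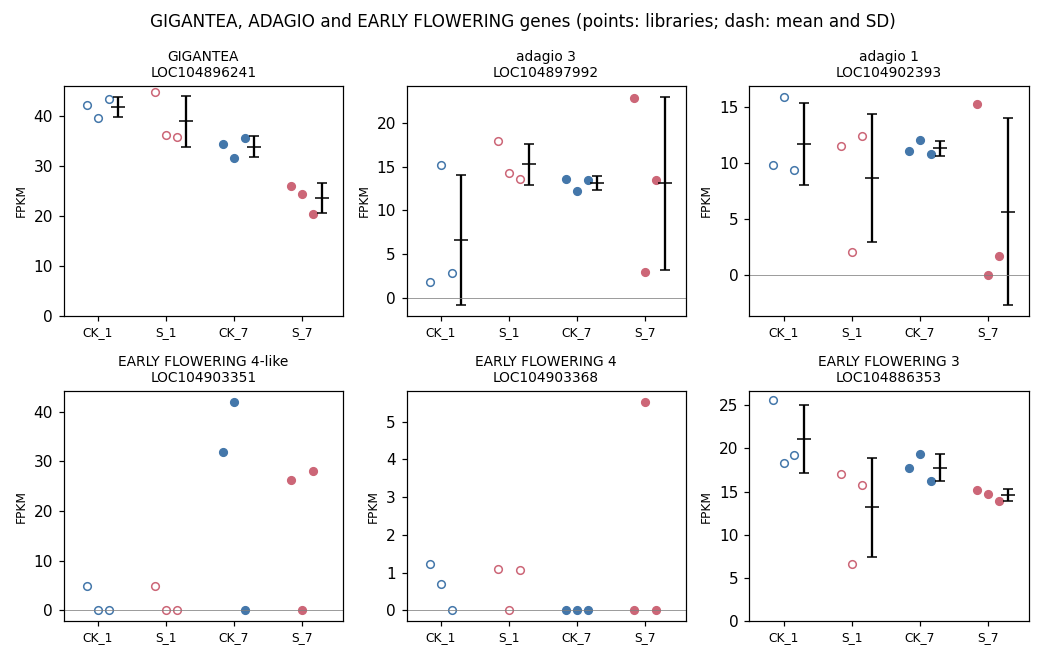
FPKM of GIGANTEA, the ADAGIO genes and the EARLY FLOWERING genes in each library by group, with colours, symbols and bars as for the MYB genes, and with no mean and SD for the EARLY FLOWERING 4 genes, which were listed at 0 in some libraries. GIGANTEA is at 20.3 to 26.1 in S_7 and at 31.5 or more in the other 9 libraries, whereas adagio protein 3 in CK_1 and S_7, adagio protein 1 in S_1 and S_7 and the EARLY FLOWERING 4-like gene in every group scatter widely.

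Counted over the 17 clock genes, salt on day 1 changed 1 gene (LHY, lower), against 5.99% of all 27073 genes tested and 2.55% called lower. On day 7 salt changed 2 (LHY and REVEILLE 2, both higher), where 5.08% of 27411 genes were DEGs, 2.7% higher and 2.38% lower. The median log2 fold change of the 17 was -0.10 on day 1 and 0.04 on day 7, and that of all tested genes was 8.70e-04 and 0.02. Among genes with a mean of at least 1 FPKM over the 12 libraries it was -9.12e-04 and 0.05. Salt and CK libraries did not overlap in 5 of the 17 on day 1 and in 6 on day 7, beside 21.8% and 26.4% of all genes.

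Between the days, 4 of the 17 were DEGs in CK (LHY, REVEILLE 8, REVEILLE 2 and APRR9), and all 4 were lower in CK_7. The background was 10.2% of 27402 genes in either direction, 6.85% higher and 3.4% lower. Among genes with a mean of at least 1 FPKM in the libraries compared, it was 2727 of 16996, with 1828 higher and 899 lower. LHY and REVEILLE 8 also had an adjusted p under 0.05 in CK, where 8.13% of all genes did. Under salt 2 of the 17 were DEGs, APRR9 and APRR2, both lower in S_7, against 6.78% of 27398 genes in either direction, 4.11% higher and 2.66% lower. With a mean of at least 1 FPKM, 1820 of 16999 genes were DEGs under salt, 1112 higher and 708 lower. The groups did not overlap in 8 of the 17 in CK and in 7 under salt, beside 32.6% and 30.6% of all genes. The median log2 difference of the 17 was -0.22 in CK and 0.24 under salt, and over all tested genes it was 0.05 and 0.09. Among genes with a mean of at least 1 FPKM over the 12 libraries it was 0.16 and 0.21, so that the value of the 17 under salt was near that of expressed genes. The 4 comparisons share groups (CK_1 enters both salt on day 1 and the days in CK, for example), and their counts are not independent of one another.

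**Figure D4:**
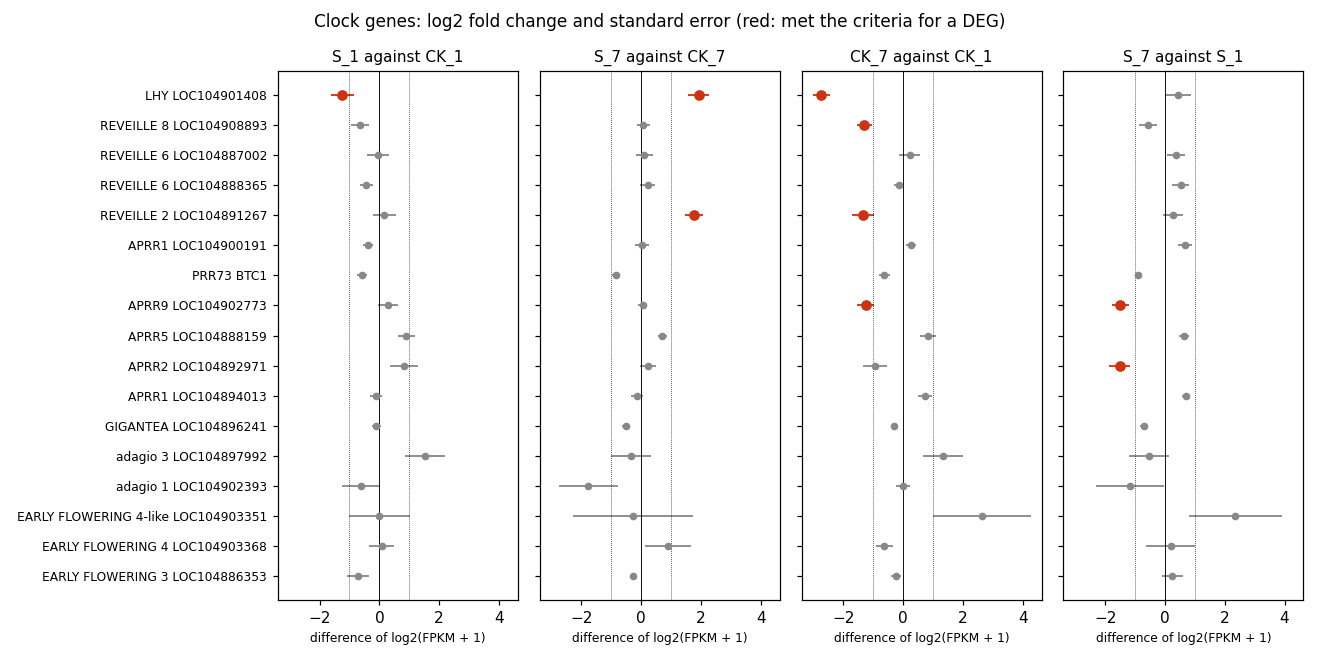
Log2 fold change of the 17 clock genes with its standard error in the 4 comparisons (horizontal axes: difference of log2(FPKM + 1); dotted lines at -1 and 1), with red points for genes that met the criteria for a DEG. LHY is at -1.24 and 1.92 for salt on day 1 and day 7 and at -2.73 for CK_7 against CK_1, and the wide bars of the EARLY FLOWERING 4 genes rest on libraries listed at 0.

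The level of LHY was also set against that of other clock genes within each library. LHY minus APRR1 (LOC104894013) on the log2(FPKM + 1) scale was 1.58 to 1.78 in CK_1, -0.21 to 1.06 in S_1, -2.55 to -1.10 in CK_7 and -0.08 to 0.77 in S_7. The control groups stood at the ends of this scale and the salt groups overlapped between them. LHY minus APRR5 was 2.61 to 3.86 in CK_1 and -0.92 to 0.09 in CK_7, with 0.40 to 1.45 in S_1 and 0.09 to 1.22 in S_7. LHY minus GIGANTEA was -0.56 to 0.18 in CK_1, -1.83 to -0.81 in S_1, -2.92 to -2.10 in CK_7 and -0.62 to 0.38 in S_7, so that CK_1 and S_7 overlapped here. Other genes gave another order. LHY minus BTC1 was -0.22 to 0.24 in CK_1, -1.39 to -0.18 in S_1, -2.63 to -1.47 in CK_7 and 0.07 to 1.24 in S_7, and LHY minus APRR9 was 2.65 to 3.53, 1.21 to 2.05, 1.10 to 1.95 and 3.03 to 3.86 in the same order of groups. With BTC1 the S_7 libraries reached highest, and with APRR9 S_7 overlapped with the upper values of CK_1. These differences are descriptions and were not tested.

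**Figure D5:**
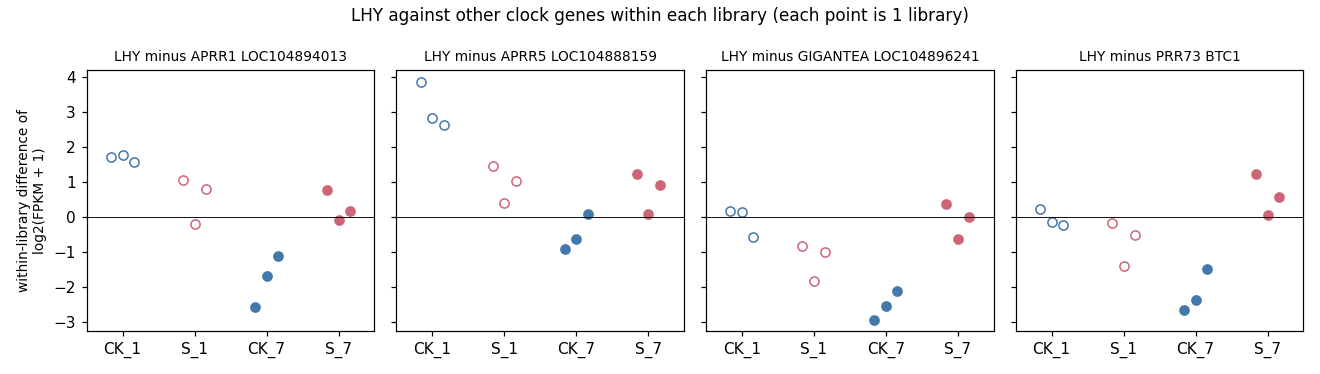
LHY minus APRR1, APRR5, GIGANTEA and BTC1 within each library (vertical axis: difference of log2(FPKM + 1), each point 1 library, CK blue, salt red, day 1 open and day 7 filled). In the panel of APRR1 the CK_1 libraries lie at 1.58 to 1.78 and the CK_7 libraries at -2.55 to -1.10, with all salt libraries between them, whereas in the panel of BTC1 the S_7 libraries reach highest.

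By position, all 17 genes were found in the RefSeq annotation of the assembly EL10.2. LHY and APRR9, which were both lower in CK_7, lie on the same chromosome with 11 protein-coding genes between them. The EARLY FLOWERING 4 and EARLY FLOWERING 4-like genes are separated by 1 protein-coding gene.

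Of 9 other clock components found by name (such as the evening complex partners PCL1 and BOA, TIME FOR COFFEE and casein kinase II subunits), none met the criteria for salt on day 1 or day 7, beside 5.99% and 5.08% of all genes. Between the days 1 did, in CK and under salt alike, beside 10.2% and 6.78% of all genes, and with 9 genes these counts are near the shares over all genes. This was the histone demethylase JMJ30 (LOC104889940), whose Arabidopsis counterpart peaks in the evening. Its FPKM was 2.12, 4.46 and 2.53 in CK_1 and 2.999, 4.17 and 1.56 in S_1, against 16.7, 19.5 and 10.9 in CK_7 and 20.5, 14.1 and 14.8 in S_7. All libraries of day 7 lay above those of day 1, with log2 differences of 2.06 in CK (standard error 0.31, limma adjusted p = 0.0229) and 2.20 under salt (standard error 0.31, limma adjusted p = 0.0373).

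The chlorophyll a-b binding proteins, after whose clock control TOC1 was named, numbered 13. From day 1 to day 7, 6 of them fell in CK and 8 fell under salt, and none rose, where 3.4% and 2.66% of all genes were called lower. Their median log2 difference was -1.69 in CK and -1.37 under salt, beside 0.05 and 0.09 over all genes. The chloroplastic LOC104886325 had FPKM values of 6.25, 11.1 and 9.27 in CK_1 and 1.49, 2.41 and 2.18 in CK_7 (log2 fold change -1.69, standard error 0.27, limma adjusted p = 0.0254). These 13 are also among the shoot genes above. Between salt and CK, 1 of the 13 rose on day 1 (CP24, LOC104883981), beside 5.99% of all genes called and 3.44% called higher. None was called on day 7, beside 5.08% of all genes. With 13 genes these counts are near the shares over all genes.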

How the data were processed

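RNA-seq was performed by the authors on roots, with 3 libraries in each of 4 groups. Reads were aligned with HISAT to the NCBI sugar beet genome, and StringTie and Ballgown gave the deposited FPKM values of 28320 genes, so that the authors had already divided out transcript length and depth. The submitters' processing notes also list HISAT2 2.0, StringTie 1.3.0, Bowtie 0.12.2 and the mouse build mm8, with no role given. Groups and replicate numbers were taken from the library labels, and all 12 libraries were used.

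From the deposited FPKM values, log2(FPKM + 1) was fitted with limma 3.58.1 (R 4.3.3) with an intensity trend. The fits were tested on simulated data in which only well expressed genes were shifted. That test does not cover genes of low level or genes listed at 0. Alternatives were an adjusted p alone (for the interaction, an unadjusted P), a pseudocount of 0.1, a mean FPKM of at least 1, median ratio scaling, the linear model of Ballgown (rewritten from its description), a single fit to all 12 libraries, a block for the replicate number, and fits that each omit a library. All 17 clock genes are described, with the value of each library for those called. Up to 4 called genes per further list, those with the largest change, are named. The members and lists were chosen with earlier results of these data known. A further entry (MSTRG.3788) bears the APRR5 locus name without a description and was not a member. The assignment of reads between genes of the same description, such as both APRR1 or both REVEILLE 6 entries, could be uncertain, and their likeness in sequence was not examined. Sequences were not used here, and the EL10.2 annotation was used only for gene names and for the order of neighbouring genes.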

Additional observations from a re-analysis of the deposited data

Results flagged for a closer look

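Among the clock genes, the salt effect on LHY (LOC104901408) differed between the days in the interaction test, by 3.16 on the log2 scale (standard error 0.56, limma adjusted p = 0.0268), with salt libraries below CK in 3 of 3 on day 1 and above CK in 3 of 3 on day 7. Among the 24 photoperiod output genes, the entry of CONSTANS-LIKE 15 (LOC104897491;LOC104897490) differed in the same way, by 1.55 (standard error 0.22, limma adjusted p = 0.0125). Its FPKM was 5.44, 5.25 and 4.79 in CK_1, 2.64, 2.57 and 2.75 in S_1, 2.53, 2.25 and 2.96 in CK_7, and 5.72, 4.23 and 5.85 in S_7. This entry joins 2 loci under 1 value, so that the values cannot be assigned to either locus.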

How the results depend on the processing

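The 10 calls of clock genes kept their direction under every alternative run, but this was largely fixed in advance. The groups compared did not overlap in these genes, so only median ratio scaling and the linear model of Ballgown could have reversed a direction. With an adjusted p alone, the number of clock genes called was 0 for salt on day 1 and 1 for salt on day 7 (BTC1). It was 2 for CK_7 against CK_1 (LHY and REVEILLE 8) and 1 for S_7 against S_1 (BTC1). Over all genes, the shares in these 4 comparisons were 0.772%, 1.69%, 8.13% and 2.66%. With an unadjusted P the interaction passed in 3 of the 17 (LHY, REVEILLE 2 and GIGANTEA). Over all genes 4171 of 28320 passed, so that the count of 3 is near the share over all genes. Salt on day 1 called 2 genes with a pseudocount of 0.1 (LHY and APRR5) and 2 with median ratio scaling (LHY and adagio protein 3). Over all 27073 genes tested, these settings called 3041 and 1628. The linear model of Ballgown called 2 in CK_7 against CK_1 (LHY and APRR9), 1 in S_7 against S_1 (BTC1) and 0 interactions, where LHY had an adjusted p of 0.0549. Over all genes, that model called 2317 of 27402, 1256 of 27398 and 485 of 28320. Each library left out in turn gave 0 to 2 genes for salt on day 1, 2 to 3 for salt on day 7, 4 to 5 for CK_7 against CK_1, 2 to 3 for S_7 against S_1 and 0 to 1 for the interaction.

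Deviations of same-numbered libraries from their group means correlated at -0.09 to 0.10, and those of differently numbered libraries at -0.09 to 0.12. Same-numbered libraries were thus no more alike, but such correlations cannot show that the numbers carry no pairing. With the replicate number as a block, 1, 2, 4 and 2 clock genes were called in the 4 comparisons and 1 in the interaction, as without it. The calls in the 4 comparisons rest on an unadjusted P. Among all genes, the block left 0, 1, 2 and 2 with an adjusted p under 0.05, in place of 209, 462, 2228 and 728. The interaction count was 230 in place of 499. Between the controls, the adjusted p over the alternatives ranged from 0.00231 to 0.153 for LHY and from 0.0139 to 0.310 for LOC104908893. For REVEILLE 2 it reached 0.470, in the linear model of Ballgown, where that call was lost. The same model gave an adjusted p of 0.739 for APRR9 and 0.754 for APRR2 in S_7 against S_1, and both calls were lost. Over all genes, a pseudocount of 0.1 called 3041 in place of 1621 for salt on day 1 and 2704 in place of 1392 for salt on day 7. Median ratio scaling moved the share of higher genes among DEGs from 60.7% to 39.2% in S_7 against S_1. Among genes with a mean of at least 1 FPKM, the median log2 difference between days was 0.16 in CK and 0.21 under salt as deposited. FPKM keeps no counts, and low genes such as APRR2 are limited by depth and by the pseudocount.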

Other observations

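Light reaches the clock through phytochromes, cryptochromes and the UV-B receptor, and 30 entries for light receptors and light signalling were found by name. Salt on day 1 called 3 of the 29 tested, beside 5.99% of all genes. Higher in S_1 were phototropin-2 (LOC104904105), by 1.34 on the log2 scale (limma adjusted p = 0.154), and an entry described as UVR8 (LOC104885440), by 1.01 (limma adjusted p = 0.168). Lower in S_1 was a cryptochrome-1 gene (LOC104887943). Its FPKM was 48.8, 60.2 and 44.5 in CK_1 and 21.8, 16.4 and 17.1 in S_1, a difference of -1.42 on the log2 scale (standard error 0.18, limma adjusted p = 0.0466). In the later roots its values were 42.9, 15.3 and 39.9 in CK_7 and 35.4, 13.6 and 12.4 in S_7, which overlap, and none of the 30 was called for salt on that day. Between the controls 2 of the 30 were called, both lower in CK_7, beside 10.2% of all genes in either direction. Of these, another UVR8 entry (LOC104904667) had FPKM values of 11.98, 7.56 and 11.1 in CK_1 and 1.63, 2.91 and 3.13 in CK_7 (log2 fold change -1.66, limma adjusted p = 0.0273). The UVR8 entries LOC104907774 and LOC104906990 were instead higher in CK_7, by 0.82 and 0.45 (limma adjusted p = 0.0352 and 0.192), below the fold criterion.

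Among 24 photoperiod output genes, salt on day 7 downregulated 2 of the 23 tested and upregulated none, beside 2.38% of all genes called lower and 2.7% higher. B-box zinc finger protein 22 (LOC104891303) had FPKM values of 8.48, 7.14 and 8.41 in CK_7 and 2.01, 2.18 and 2.38 in S_7, a difference of -1.50 on the log2 scale (standard error 0.15, limma adjusted p = 0.0205). CONSTANS-LIKE 4 (LOC104906002) was called for salt on day 1, with 45.2, 22.1 and 23.7 in S_1 against 6.66, 15.2 and 0.275 in CK_1 (log2 fold change 2.46, standard error 0.95, limma adjusted p = 0.297). It fell from S_1 to S_7, where its FPKM was 1.48, 3.93 and 2.01, by 3.16 on the log2 scale (standard error 0.38, limma adjusted p = 0.0292).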
